A study of Mus musculus with 34 samples.

Results

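The H3K9me3 and H3K27ac signal over a cluster of KRAB zinc finger genes at the distal end of mouse chromosome 4 was examined in embryonic stem cells of 2 inbred strains and their congenic derivatives. The cluster was taken as every counted region of chromosome 4 (mm10) whose start, counted from 0 as in the region names, lies from 144500000 to 147999999. It held 553 of 248336 regions in the list shared by 3 of the 4 count tables, and 379 of 96988 regions in the separate list used for H3K27ac in independent lines. The regions were 511 bp (shared list) and 1221 bp (second list) wide at the median. Counts were given by 250 kb step, by region and by gene, and no member was at 0 counts in all libraries of any genotype.

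Both marks were measured by ChIP-seq after MNase digestion of formaldehyde-fixed chromatin from cells grown in serum with LIF, the MEK inhibitor PD0325901 and the GSK3 inhibitor CHIR99021. The strain comparison used 3 B6 (C57BL/6J) and 3 D2 (DBA/2J) lines per mark, each line being 1 biological replicate. The remaining libraries were repeated libraries of 1 line per genotype, namely B6, D2, B6-13D2 (B6 cells with a D2 segment of chromosome 13, B6.D2-(rs30079041-rs51756099)/Bakr, line QJ 6-1) and D2-13B6 (D2 cells with a B6 segment of chromosome 13, line XE 2-4, given as D2.B6-(rs29224292-rs13469455)/Bakr in the sample labels). The chromosome 4 cluster lies outside the exchanged segment, so B6-13D2 and B6 are labelled with the same strain on chromosome 4, as are D2-13B6 and D2. For H3K9me3 there were 3 B6, 2 B6-13D2, 2 D2 and 3 D2-13B6 repeated libraries, and for H3K27ac 3 per genotype. In each genotype 2 of the 3 H3K27ac libraries differed by less than sampling noise and were counted as 1 sample, which left n = 2. The B6 and D2 lines of the repeated libraries were also among the separate lines, and with 1 line per genotype, genotype and line cannot be told apart in the repeated libraries. The labels call these technical replicates, so their p-values measure the spread between libraries of a line.

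KRAB zinc finger proteins form a large and fast-evolving family in mammals. An array of C2H2 zinc fingers reads DNA, often within transposable elements, and the KRAB domain recruits TRIM28 (KAP1), which brings the H3K9 methyltransferase SETDB1 and leads to H3K9me3 over the bound element. The genes themselves sit in clusters of tandem copies that differ between mouse strains, and these clusters are known to carry broad H3K9me3 of their own, especially at the exons that encode zinc finger arrays. H3K27ac, in contrast, marks active promoters and enhancers. The annotation places 38 protein-coding genes in the interval. Of these, 20 were in the zinc finger list (the genes with Zfp symbols, Rex2 and Gm13212, whose protein holds repeated zinc finger linkers) and 11 in the list of flanking genes. The zinc finger genes ran from Zfp990 at 145.5 Mb to Zfp933, ending before the flanking genes Miip, Fv1, Mfn2, Plod1, 2510039O18Rik and Nppb.

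The copies are alike in sequence, which bears on how reads can be placed. A RefSeq promoter sequence (GRCm38.p6) was matched for 14 of the 20 zinc finger genes. Among the 91 pairs of these 250-base upstream windows the median identity was 64.8%, and 15 pairs involving 10 genes were at least 80% identical. The windows of Rex2 (chr4:147021600-147021849, + strand), Zfp600 (chr4:146156577-146156826, + strand), Zfp979 (chr4:147642509-147642758, − strand) and Zfp985 (chr4:147553027-147553276, + strand) are shown because the first 3 are near copies of each other, while Zfp985 is the zinc finger promoter whose H3K9me3 was called higher in the D2 lines. Zfp600 was 99.2% and Zfp979 94.0% identical to Rex2, and capitals mark the bases that differ from Rex2 in an alignment. Zfp985 was 82.8% identical to Rex2 and is printed without capitals.
Rex2: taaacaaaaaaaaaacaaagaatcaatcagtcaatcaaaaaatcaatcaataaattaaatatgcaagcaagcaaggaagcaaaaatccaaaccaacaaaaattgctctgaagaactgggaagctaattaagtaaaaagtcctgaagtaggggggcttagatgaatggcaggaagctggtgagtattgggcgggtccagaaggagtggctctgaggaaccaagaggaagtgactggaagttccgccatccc
Zfp600: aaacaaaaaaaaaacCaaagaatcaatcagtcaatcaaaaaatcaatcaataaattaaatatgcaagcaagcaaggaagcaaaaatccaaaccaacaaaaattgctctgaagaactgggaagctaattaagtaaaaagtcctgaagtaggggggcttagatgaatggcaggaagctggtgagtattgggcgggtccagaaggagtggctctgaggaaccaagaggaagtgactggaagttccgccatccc
Zfp979: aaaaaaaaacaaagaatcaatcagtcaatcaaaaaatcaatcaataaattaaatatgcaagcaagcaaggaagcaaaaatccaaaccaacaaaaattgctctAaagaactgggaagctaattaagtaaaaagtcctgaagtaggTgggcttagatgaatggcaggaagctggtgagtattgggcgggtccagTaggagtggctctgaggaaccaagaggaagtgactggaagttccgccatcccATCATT
Zfp985: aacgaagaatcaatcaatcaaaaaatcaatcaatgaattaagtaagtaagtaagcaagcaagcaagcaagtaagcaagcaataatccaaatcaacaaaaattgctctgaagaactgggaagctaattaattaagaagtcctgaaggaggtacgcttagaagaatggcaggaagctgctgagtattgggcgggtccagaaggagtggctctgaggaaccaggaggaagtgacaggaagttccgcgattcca

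The 8 letters GAGAAACC, which encode part of the linker between zinc fingers, were searched on both strands. They were in 0 of the 14 zinc finger promoter windows and in 1.6% of all 32851 promoter windows of the table. They were in 10.5% of the 553 shared-list members and in 8.08% of the other chromosome 4 regions of that list. In the second list they were in 26.4% of the members and 26.6% of the others.

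Regions that carried the main results are shown as 300 bases each from GRCm38, + strand, with 1 read length of 75 bases in capitals. They are the Gm21411 intron (chr4:146892752-146893051, the H3K9me3 region with the smallest p between strains), the Zfp990 intron (chr4:145517523-145517822, the region with the smallest p among those higher in D2), an intron of C230088H06Rik (chr4:147104182-147104481) and a stretch near Zfp933 (chr4:147818810-147819109), the last 2 from the H3K9me3 segment comparisons. The capitals occur once in the genome for the Gm21411, C230088H06Rik and Zfp933 sequences and at 2 places for Zfp990.
Gm21411 intron region: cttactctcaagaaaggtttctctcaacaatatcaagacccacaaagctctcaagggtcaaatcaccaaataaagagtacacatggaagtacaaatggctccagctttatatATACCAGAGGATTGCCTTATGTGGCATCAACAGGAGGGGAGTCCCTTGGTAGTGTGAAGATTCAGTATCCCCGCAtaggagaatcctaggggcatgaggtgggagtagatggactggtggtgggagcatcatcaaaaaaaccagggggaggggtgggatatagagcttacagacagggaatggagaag
Zfp990 intron region: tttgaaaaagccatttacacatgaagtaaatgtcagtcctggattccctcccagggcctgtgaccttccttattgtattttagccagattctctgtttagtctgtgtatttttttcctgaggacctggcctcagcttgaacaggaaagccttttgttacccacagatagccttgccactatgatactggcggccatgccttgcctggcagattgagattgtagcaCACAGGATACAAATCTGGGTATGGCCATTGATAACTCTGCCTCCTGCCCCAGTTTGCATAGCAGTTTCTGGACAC
C230088H06Rik intron region: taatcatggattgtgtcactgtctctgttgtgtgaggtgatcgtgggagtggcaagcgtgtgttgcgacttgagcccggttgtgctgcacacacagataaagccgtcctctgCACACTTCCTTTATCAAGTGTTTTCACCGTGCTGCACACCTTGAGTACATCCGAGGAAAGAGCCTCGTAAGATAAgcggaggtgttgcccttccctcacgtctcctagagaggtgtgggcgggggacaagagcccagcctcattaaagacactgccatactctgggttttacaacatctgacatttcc
region near Zfp933: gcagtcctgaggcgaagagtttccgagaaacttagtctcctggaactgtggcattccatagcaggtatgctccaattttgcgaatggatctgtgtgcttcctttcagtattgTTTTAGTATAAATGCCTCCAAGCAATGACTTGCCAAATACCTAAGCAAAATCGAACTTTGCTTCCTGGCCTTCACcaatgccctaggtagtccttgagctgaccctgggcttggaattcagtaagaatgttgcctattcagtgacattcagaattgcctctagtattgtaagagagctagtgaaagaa

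Across the cluster H3K9me3 was lower in the D2 lines than in the B6 lines. The cluster took 1.16 to 1.46% of all counted H3K9me3 reads in the 3 B6 lines and 0.674 to 0.732% in the 3 D2 lines. Of 401 members with enough counts to be tested, 265 were lower and 24 higher in D2 (289 called at an adjusted p under 0.05, edgeR quasi-likelihood F-test with Benjamini-Hochberg adjustment over all regions). Over all 44797 tested regions 34.6% were called, 17.3% higher and 17.4% lower in D2. The median log2 difference (D2 minus B6, as throughout) was -1.03 for the members and 0.0004 for all regions. H3K27ac was also lower, though by less. It took 0.776 to 0.791% of reads in the B6 lines and 0.564 to 0.583% in the D2 lines, and of 379 tested members 173 were lower and 44 higher (217 called, median -0.31). Over all regions of that list 49.3% were called, 24.3% higher and 25.0% lower, with a median of -0.013.

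The repeated libraries, prepared from 1 B6 and 1 D2 line, gave the same directions. Of 435 tested members 234 were lower and 3 higher for H3K9me3 (237 called, median log2 difference -0.94), beside 11.4% of all regions called, 4.42% higher and 6.99% lower. For H3K27ac 296 members were lower and 52 higher of 536 tested (348 called, median -0.54), beside 28.1% of all regions called, 14.7% higher and 13.4% lower. Since these lines are among the separate lines, the repeated libraries are not an independent sample of the strains. H3K27ac levels are not compared between the separate lines and the repeated libraries, which used different antibodies according to the labels.

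The H3K9me3 decrease had a boundary along the chromosome. All 9 of the 250 kb steps from 145.75 Mb on were lower in D2 and none of the 5 before was called, beside 30.5% of all windows of the genome. The log2 differences of the 9 steps ran from -0.59 ± 0.12 (SE) at 147.75 Mb to -1.56 ± 0.14 at 146.0 Mb. The step at 147.25 Mb, which holds Zfp988, Zfp978 and the start of Zfp982, had the most H3K9me3, with 3556 ± 748 CPM (counts scaled to TMM-corrected library totals, SD, n = 3) in B6 and 1465 ± 160 in D2. Summed from 145.75 Mb to the cluster's end, a boundary chosen after the values were seen, H3K9me3 was 11490 ± 1718 CPM in the B6 lines and 4953 ± 237 CPM in the D2 lines. The 3 B6 values lay between 9937 and 13340 CPM and the 3 D2 values between 4683 and 5130 CPM, with no overlap. Before 145.75 Mb, where the interval holds the flanking genes Dhrs3 to Tnfrsf8 and the zinc finger genes Zfp990, Gm13212 and Zfp980, the sums were 1876 ± 228 CPM in B6 and 2003 ± 139 CPM in D2, and their ranges overlapped.

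**Figure D1:**
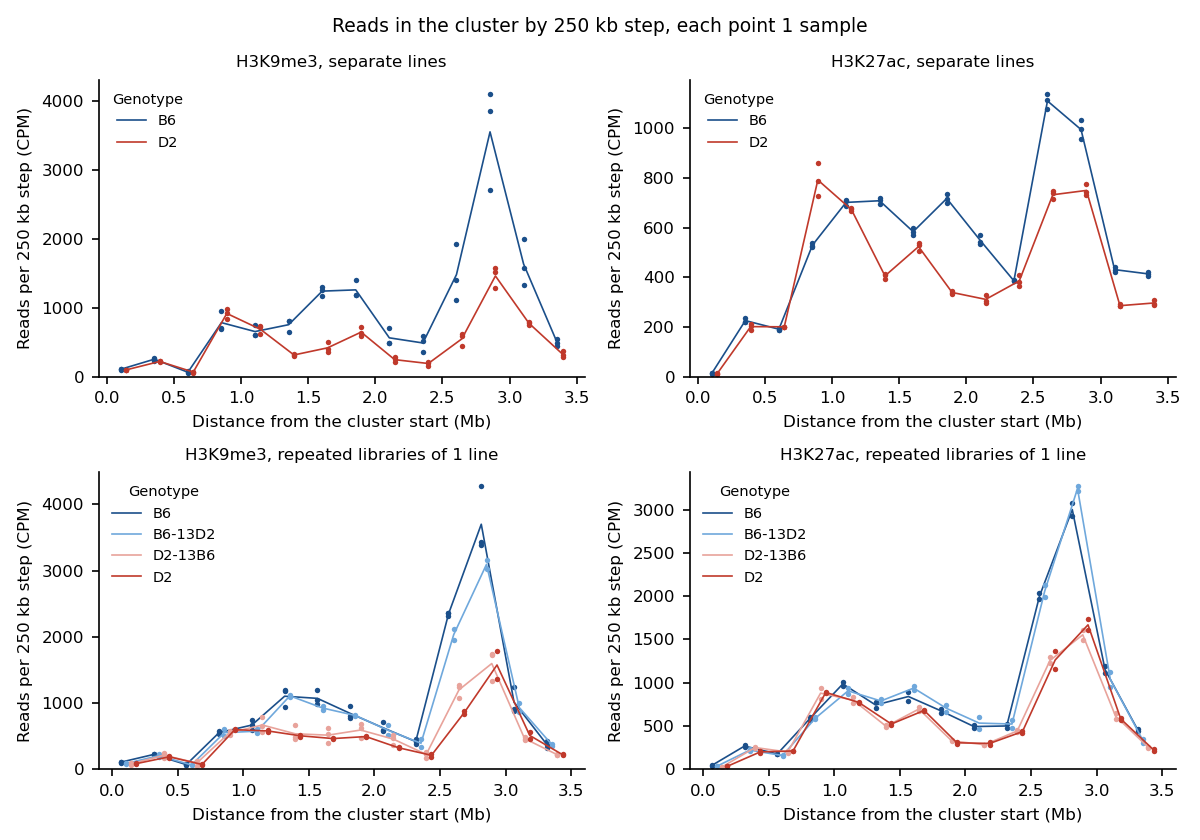
Reads per 250 kb step in CPM (vertical axes, from 0) against distance from the cluster's start in Mb (horizontal axes), for H3K9me3 and H3K27ac in the separate lines (upper panels) and in the repeated libraries (lower panels). Points are samples and lines join genotype means; the H3K9me3 points of B6 lie above those of D2 from 1.25 Mb on, and each congenic line runs near the parental line of its own background.

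H3K27ac by step was lower in D2 in 9 steps and higher in 1, beside 64.6% of all windows called. The second step, before 145.75 Mb, was among the lower ones (-0.16 ± 0.05, adjusted p 0.00690). Summed before 145.75 Mb, H3K27ac was 1662 ± 10.85 CPM in B6 and 1879 ± 50.16 CPM in D2. From there on it was 5890 ± 89.41 and 4029 ± 100.6 CPM. Before 145.75 Mb 33 members were higher and 32 lower of 128 tested. From there on 11 were higher and 141 lower of 251, beside 24.3% higher and 25.0% lower over all regions. The largest decrease was at 146.25 Mb (-1.08 ± 0.04, 717 ± 16.6 CPM in B6 and 339.2 ± 5.67 in D2, SD, n = 3), the step that holds Zfp992. The step at 145.25 Mb, which holds Tnfrsf8, a member of the tumour necrosis factor receptor superfamily (CD30), and the noncoding gene Platr16, rose from 529.4 ± 7.97 to 791.3 ± 66.0 CPM (+0.58 ± 0.05). The step at 146.75 Mb, with Zfp989, had 386.1 ± 1.45 CPM in B6 and 385.5 ± 21.1 CPM in D2, although its H3K9me3 was -1.34 ± 0.14. In the repeated libraries the same 9 H3K9me3 steps were lower (15.7% of all windows called), and 11 H3K27ac steps were lower and 2 higher, at 145.0 and 145.25 Mb (51.4% of all windows called). The 11 included the first (-0.33), the second (-0.41) and the fifth step (-0.35), all before 145.75 Mb.

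**Figure D2:**
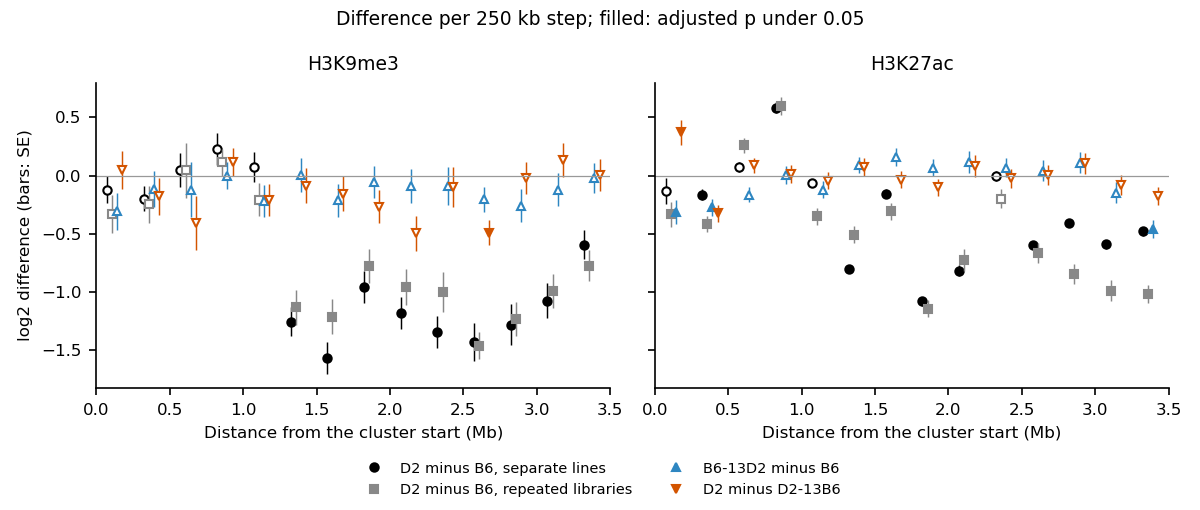
Log2 difference with its SE (vertical axis) for each 250 kb step against distance from the cluster's start in Mb (horizontal axis), for the strain comparison in separate lines, the same comparison in repeated libraries, and the comparisons of B6-13D2 with B6 and of D2 with D2-13B6. Filled symbols have an adjusted p under 0.05. For H3K9me3 both D2 minus B6 series are filled and below 0 at every step from 1.25 Mb on and filled at none before. The segment comparisons stay between -0.49 and 0.14 for H3K9me3.

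Among single regions, the H3K9me3 decrease with the smallest p was in an intron of Gm21411 (chr4:146892725-146893077). It had 63.8, 60.1 and 57.3 CPM in the B6 lines and 3.03, 2.68 and 1.85 CPM in the D2 lines. Every B6 value was far above every D2 value, and the log2 difference was -4.55 ± 0.26 (adjusted p 1.93e-17). In the repeated libraries it had 38.7, 35.6 and 29.7 CPM in B6 and 40.4 and 29.4 CPM in B6-13D2, against 7.34 and 6.83 CPM in D2 and 3.73, 5.15 and 4.80 CPM in D2-13B6. The region thus followed the chromosome 4 background in all 10 libraries, and its 3 probe sequences of 75 bases each occur once in the genome.

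A pair of neighbouring regions at Zfp979 came next. The region over its exons (chr4:147636638-147640423) had 127.6, 130.9 and 150.6 CPM in B6 and 19.2, 23.8 and 15.3 CPM in D2 (-2.80 ± 0.17). The region over its start (chr4:147640644-147643549) had 131.5, 108.2 and 141.1 CPM in B6 and 22.7, 23.0 and 18.1 CPM in D2 (-2.57 ± 0.17). Both lay apart between strains, and both hold probe sequences that occur at more than 1 place in the genome, so that their reads may be shared with copies.

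Of the 24 regions with higher H3K9me3 in D2, 20 lay before 145.75 Mb. Of 93 tested there 17 were lower, beside 17.3% higher and 17.4% lower over all regions. Called in both the separate lines and the repeated libraries were 2 members higher and 215 lower in D2. Of the 24, the one with the smallest p was in an intron of Zfp990 (chr4:145515442-145517822). It had 31.9, 22.7 and 30.2 CPM in B6 and 96.0, 69.8 and 82.9 CPM in D2 (+1.54 ± 0.18, adjusted p 4.59e-09). A region over the processed pseudogene Gm13226 (chr4:145576419-145577870) had 16.3, 16.7 and 13.9 CPM in B6 and 41.9, 39.5 and 35.2 CPM in D2 (+1.31 ± 0.20). Near Zfp933 (chr4:147820276-147820782, 2204 bp away), H3K9me3 was 1.30, 4.01 and 1.89 CPM in B6 and 16.7, 10.4 and 20.4 CPM in D2 (+2.67 ± 0.40). In all 3 the strains did not overlap, and the last 2 regions are unique in the genome by their probe sequences.

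For H3K27ac the decrease with the smallest p was a region in an intron of the noncoding gene Gm26573 (chr4:146425225-146433288), with 114.1, 104.9 and 106.8 CPM in B6 and 17.6, 20.6 and 17.2 CPM in D2 (-2.55 ± 0.08). An intergenic region 66496 bp from Zfp986 (chr4:145788908-145802298) fell from 92.1 ± 5.20 to 26.3 ± 0.937 CPM (-1.81 ± 0.07), and one over Zfp991 (chr4:147140278-147151394) from 95.0 ± 5.69 to 29.3 ± 0.428 CPM (-1.70 ± 0.07). The 3 increases named by the same rule were another intron region of Gm26573 (chr4:146929295-146937476, 28.7 ± 2.44 CPM in B6 and 68.1 ± 3.30 in D2, +1.25 ± 0.08) and 2 adjoining regions of Platr16, a noncoding transcript named for its association with pluripotency. The first of these (chr4:145425444-145435076) had 63.2, 58.7 and 56.4 CPM in B6 and 112.9, 119.5 and 112.9 CPM in D2 (+0.95 ± 0.07), and is unique by its probe sequences.

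H3K27ac was lower in D2 at most zinc finger promoters. A promoter region was the region overlapping 500 bases either side of a gene's start with the highest mean. H3K27ac was lower in D2 at 16 and higher at 1 of 19 tested zinc finger promoters in the separate lines, with a median log2 difference of -0.59 (-0.013 over all regions), beside 25.0% lower and 24.3% higher over all regions. The largest changes were at Zfp993 (234.5 ± 9.27 CPM in B6, 86.7 ± 5.58 in D2, -1.44 ± 0.06), Zfp991 (193.8 ± 6.73 and 77.6 ± 6.57 CPM, -1.32 ± 0.07) and Zfp992 (15.6 ± 0.637 and 6.39 ± 0.667 CPM, -1.29 ± 0.11). The exception was Zfp982, at 40.8 ± 0.712 and 50.4 ± 8.22 CPM (+0.31 ± 0.08). Zfp990 and Zfp933, at the outer ends of the gene array, were not called, with 152.7 ± 8.95 and 150.6 ± 7.10 CPM for Zfp990 and 17.5 ± 1.09 and 17.5 ± 0.882 CPM for Zfp933. The regions of this list are broad, and the Zfp985 promoter region, for example, spans chr4:147551767-147567574.

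H3K9me3 at zinc finger promoters also fell, at 12 of 16 tested, with 1 higher and a median of -1.15, beside 17.4% lower and 17.3% higher over all regions. Zfp979 (see its start region above), Zfp978 (70.2 ± 20.4 and 14.4 ± 3.07 CPM, -2.28 ± 0.21), Zfp988 (63.9 ± 8.52 and 13.7 ± 1.35 CPM, -2.22 ± 0.19) and Zfp600 (32.2 ± 2.58 and 7.02 ± 3.68 CPM, -2.17 ± 0.26) changed most. Zfp988 is among the few of these whose promoter region is unique by its probe sequences. The calls at Zfp989 (-1.08, adjusted p 0.0481) and Zfp984 (-0.66, adjusted p 0.0210) were lost under DESeq2 (adjusted p 0.412 and 0.129), and 1 library decided Zfp989, whose log2 difference was -0.11 without B6 replicate 2. Zfp990, Gm13212 and Zfp980, the 3 genes before 145.75 Mb, were not called (0.21, -0.27 and 0.24).

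At the Zfp985 promoter the marks went opposite ways in the separate lines. Its promoter region (chr4:147552662-147553832, UTR and upstream sequence, unique by its probe sequences) had H3K9me3 of 27.3, 34.1 and 30.2 CPM in the B6 lines and 48.0, 55.6 and 52.3 CPM in the D2 lines (+0.77 ± 0.17, adjusted p 0.000503). The D2 lines were all higher than the B6 lines, but in the repeated libraries the difference between D2 and B6 was +0.30 ± 0.24 and was not called (adjusted p 0.481). H3K27ac over the broader Zfp985 region was 167.8 ± 12.9 CPM in B6 and 88.6 ± 1.67 CPM in D2 (-0.92 ± 0.07). Here H3K9me3 was higher and H3K27ac lower in D2, where the other zinc finger promoters called for both marks had both lower, apart from Zfp982 (H3K9me3 -0.71, H3K27ac +0.31).

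**Figure D3:**
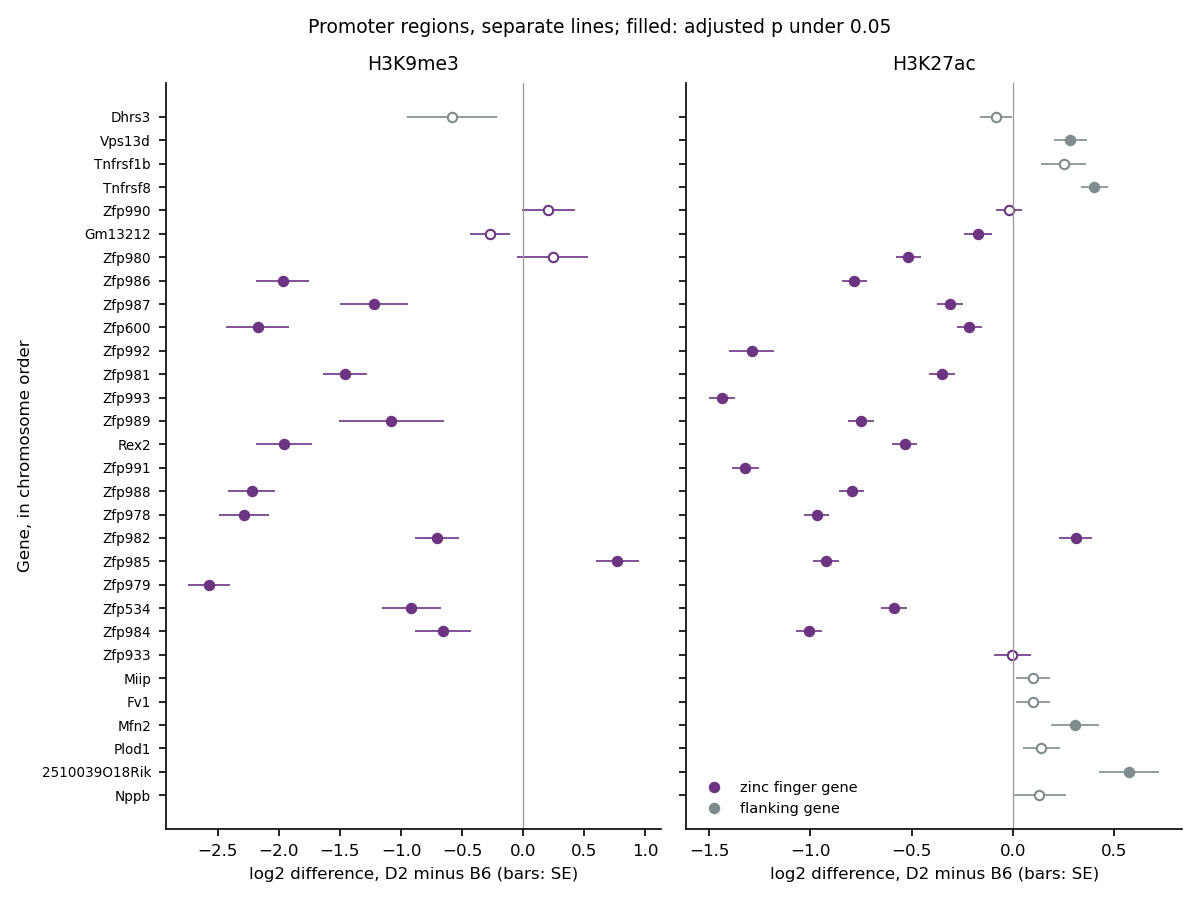
Log2 difference D2 minus B6 with its SE (horizontal axes) at the promoter regions of zinc finger and flanking genes in chromosome order (vertical axis), for H3K9me3 and H3K27ac in the separate lines. Filled points have an adjusted p under 0.05; H3K27ac lies below 0 at 16 called zinc finger promoters and above 0 at Zfp982 and at 4 called flanking promoters.

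H3K27ac at flanking promoters was compared in the same way. It was higher in D2 at 4 and lower at 0 of 10 tested flanking promoters in the separate lines, beside 24.3% higher and 25.0% lower over all regions. It was higher at 6 and lower at 0 of 10 between D2 and B6 in the repeated libraries, beside 14.7% and 13.4%. The 10 promoters lay on 9 regions. In that repeated comparison 8 of 16 promoters of partners of KRAB zinc finger proteins, across the genome, were also higher and 0 lower. The direction there was thus not particular to the flanking genes. The segment comparisons called 0 of 10 flanking promoters between B6-13D2 and B6 and 1 of 10 between D2 and D2-13B6, beside 13.0% and 6.67% of all regions. The 1 was that of the retinal reductase gene Dhrs3, at 26.9 ± 4.76 CPM in D2 and 38.1 ± 4.17 CPM in D2-13B6 (-0.49 ± 0.14, adjusted p 0.0190). The 4 called higher in the separate lines included Tnfrsf8 (98.9 ± 3.39 and 130.7 ± 15.5 CPM, +0.40 ± 0.07). Vps13d, a lipid transfer protein, was another (22.2 ± 0.828 and 27.1 ± 1.18 CPM, +0.28 ± 0.08). The others were 2510039O18Rik (4.94 ± 1.55 and 7.32 ± 0.35 CPM, +0.57 ± 0.15) and Mfn2, which drives mitochondrial fusion (8.01 ± 0.729 and 9.91 ± 0.533 CPM, +0.31 ± 0.12). The Mfn2 call was lost under DESeq2 (adjusted p 0.0913). In the repeated libraries Tnfrsf8 had 6.88 ± 0.562 CPM in B6 and 35.3 ± 3.10 CPM in D2 (+2.35 ± 0.16, n = 2), and the congenic lines had 7.91 ± 0.338 (B6-13D2) and 35.5 ± 6.48 CPM (D2-13B6), so it followed the background. Miip and Fv1, a restriction factor against murine leukaemia virus, share 1 region, which was not called. H3K9me3 at flanking promoters was at most 16.5 CPM in any genotype mean, and none of those tested was called.

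At the last exons, where the zinc finger arrays are encoded, few genes had a counted region, 3 of 20 in the shared list. H3K9me3 fell over both last exons tested, beside 17.4% of all regions lower, those of Zfp992 (204.6 to 75.5 CPM, -1.44 ± 0.14) and Zfp978 (135.6 to 53.6 CPM, -1.35 ± 0.16) in the separate lines. In the repeated libraries both marks were lower there, beside 6.99% (H3K9me3) and 13.4% (H3K27ac) of all regions, with H3K27ac at -1.17 ± 0.15 for Zfp992 and -0.95 ± 0.14 for Zfp978. There H3K27ac over the last exon of Zfp933 fell from 7.43 to 1.54 CPM (-2.20 ± 0.25). In the separate lines 1 of 4 last exons was called lower for H3K27ac (median -0.15), beside 25.0% of all regions. That was Zfp933, whose region (chr4:147803359-147825954, -1.01 ± 0.07) is also the one counted as the Zfp984 promoter, while Zfp992 had 3.76 ± 0.970 CPM in B6 and 3.54 ± 0.401 CPM in D2 (-0.10 ± 0.18, adjusted p 0.67).

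By annotation, introns held 321 of the 553 shared-list members and 186 of the 379 of the second list. Of 256 tested intronic regions 189 were lower and 6 higher for H3K9me3 (median -1.20), and of 96 intergenic ones 40 were lower and 14 higher (median -0.45). Exons that are neither coding nor UTR had 16 lower and 2 higher of 19, UTRs 15 and 1 of 21, and coding exons 5 and 1 of 9, beside 17.4% lower and 17.3% higher over all regions. For H3K27ac in the separate lines 94 of 186 intronic regions were lower and 13 higher, and 33 of 101 intergenic regions were lower and 11 higher. UTRs had 20 lower and 3 higher of 28, exons that are neither 11 and 8 of 24, and coding exons 15 and 9 of 40, beside 25.0% lower and 24.3% higher over all regions.

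Where both marks were called, both were mostly lower. Of 398 members tested both for H3K9me3 in the separate lines and for H3K27ac in the repeated libraries, 229 were called in both, 212 of them lower in D2 for both marks and 3 higher for both. The direction was shared by 93.9% of the 229. Outside the cluster 6623 of 39528 regions tested were called in both, and 44.9% of them shared the direction. Of these, 24.4% were lower for both, against 92.6% in the cluster. Most calls of either mark in the cluster were lower, so a high shared direction follows in part from that alone. Within the repeated libraries 198 of 432 members were called for both marks, and 99.0% of them shared the direction. Outside, 4808 of 78099 regions were called for both, and 56.6% of them shared it. The libraries of the 2 marks are separate, but the B6 and D2 line of the repeated set is common to both, so these shares are a description.

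The share of unique sequence was low in the cluster. All 3 probe sequences of 75 bases (the read length, from a region's start, centre and end) occurred once in GRCm38 for 274 of 553 members (49.5%), against 90.9% of the other chromosome 4 regions, and for 118 of 379 members of the second list (31.1% against 87.5%). Assembly gaps filled 19.99 to 52.7% of each step from 145.75 to 147.0 Mb. The treatment of reads with several placements is not given in the sources used here, and a difference between strains in gene copies and in reads that map to the B6-based reference cannot be told apart from a difference in the mark. Over the whole cluster, H3K9me3 in the separate lines was lower at 66 and higher at 13 of 137 tested unique members (median -0.53, against -1.03 for all members), beside 17.4% lower and 17.3% higher over all regions. H3K27ac was lower at 38 and higher at 31 of 118 (median -0.02, against -0.31), shares near the 25.0% lower and 24.3% higher over all regions. Unique members in the repeated libraries had medians of -0.49 for H3K9me3 and -0.25 for H3K27ac. Among unique members from 145.75 Mb on, a boundary chosen after the values were seen, H3K9me3 was lower at 57 and higher at 3 of 83 tested (median -0.95) and H3K27ac lower at 20 and higher at 5 of 40 (median -0.42). In the repeated libraries 41 of 90 unique members from there on were lower for H3K9me3 and none higher (median -0.76). Over all regions 6.99% were lower and 4.42% higher. For H3K27ac 71 of 118 were lower and 6 higher (median -0.65), beside 13.4% lower and 14.7% higher over all regions. In the shared list 1 of 26 members was unique in the step at 145.75 Mb, and 45 of 60 in that at 147.75 Mb. The unique members thus say little on where along the chromosome the difference starts. The part of copy number or mapping in these differences between strains was not tested.

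**Figure D4:**
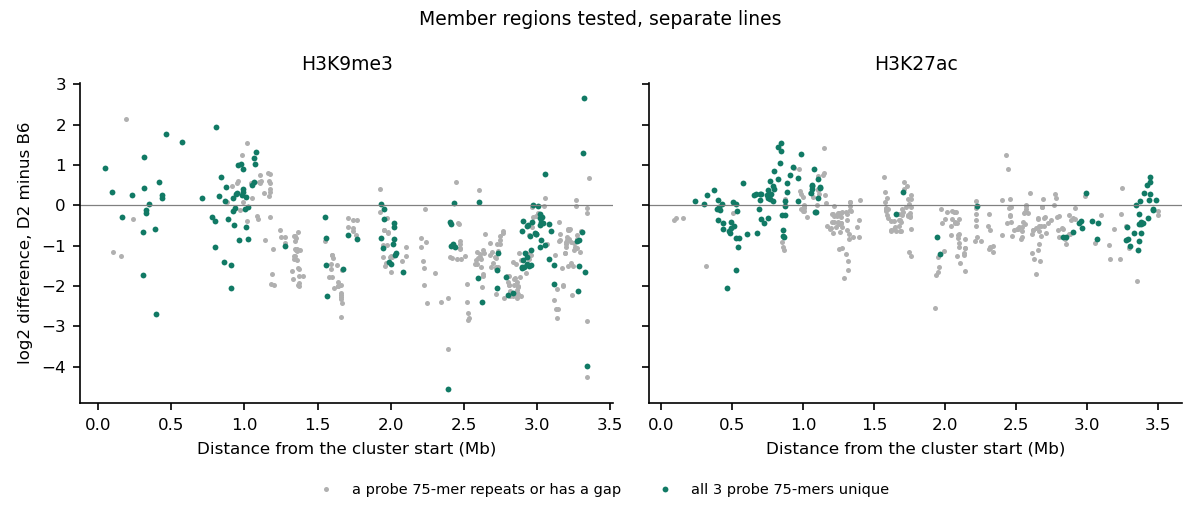
Log2 difference D2 minus B6 (vertical axis) of each tested member against distance from the cluster's start in Mb (horizontal axes), for H3K9me3 and H3K27ac in the separate lines. Green points are members whose 3 probe sequences occur once in the genome and grey points are the others; from 1.25 Mb on, 57 of 83 green points were called lower for H3K9me3.

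Few members were called for H3K9me3 between lines that differ in the chromosome 13 segment. From 145.75 Mb on, the repeated libraries had 11480 ± 765 CPM in B6 (n = 3) and 10240 ± 111 CPM in B6-13D2 (n = 2), and 5783 ± 719 CPM in D2-13B6 (n = 3) and 5137 ± 377 CPM in D2 (n = 2). Between B6-13D2 and B6, 4 of 435 members were called, all higher in B6-13D2, beside 1.68% of all regions called. The median member was at -0.19 (all regions -0.028), and 37 members had an unadjusted p under 0.05, 31 of them lower. Between D2 and D2-13B6, 3 of 435 members were called, 1 higher and 2 lower in D2, beside 2.17% of all regions. The median was -0.17 (all regions -0.027), and of 65 members with an unadjusted p under 0.05, 58 were lower. No member was called in both comparisons, whereas 594 of all 86874 tested regions were (0.684%). DESeq2 called 0 members in either comparison. These calls hang on single libraries. The 4 became 0 without B6 replicate 2 or B6-13D2 replicate 1, 2 without B6 replicate 3 and 1 without B6-13D2 replicate 2. The 3 became 0 without D2 replicate 1 or 2 or D2-13B6 replicate 2 or 3, and 25 (3 higher, 22 lower) without D2-13B6 replicate 1.

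By step, no H3K9me3 window was called between B6-13D2 and B6 (0.176% of all windows called). Between D2 and D2-13B6 the step at 147.0 Mb, with Rex2 and Zfp991, was lower in D2 (852.8 ± 36.3 CPM, n = 2) than in D2-13B6 (1197 ± 107 CPM, n = 3), by -0.49 ± 0.11 (adjusted p 0.0287, 1.98% of all windows called). The step was no longer called without D2 replicate 1 or 2 or D2-13B6 replicate 2 or 3, and 4 steps were called without D2-13B6 replicate 1. That library had 0.635% of its H3K9me3 counts in the cluster, and D2-13B6 replicates 2 and 3 had 0.758% and 0.784%.

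The H3K9me3 regions named between B6-13D2 and B6 lay near Zfp933 and in Tnfrsf8. A region 3234 bp from Zfp933 (chr4:147818166-147819752) had 5.53, 4.71 and 8.57 CPM in B6 and 16.4 and 15.4 CPM in B6-13D2, with no overlap (+1.33 ± 0.31, adjusted p 0.00330). D2 was at 5.51 and 6.83 CPM and D2-13B6 at 4.97, 4.63 and 5.28 CPM, a difference that was not called. The next region (chr4:147820276-147820782), the one that was higher in the D2 lines, had 3.04 ± 2.29 CPM in B6 and 8.66 ± 0.378 CPM in B6-13D2 (+1.48 ± 0.43, adjusted p 0.0405). It had 5.99 ± 1.04 CPM in D2 and 2.26 ± 0.969 CPM in D2-13B6, which was not called. In the same comparison, an intron region of Tnfrsf8 (chr4:145276298-145277519) had 2.02 ± 1.73 and 7.02 ± 0.624 CPM (+1.75 ± 0.50, adjusted p 0.0361).

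Between D2 and D2-13B6 the named H3K9me3 regions were in introns of the noncoding gene C230088H06Rik, which overlaps several of the zinc finger genes. One (chr4:147103744-147104917) had 11.6 and 14.2 CPM in D2 and 21.1, 27.3 and 24.5 CPM in D2-13B6 (-0.91 ± 0.27, adjusted p 0.0466). B6, at 31.6, 26.2 and 31.8 CPM, and B6-13D2, at 25.4 and 22.4 CPM, were near D2-13B6. A second (chr4:147274785-147276168) had 24.8 ± 5.72 CPM in D2 and 40.9 ± 7.45 CPM in D2-13B6 (-0.72 ± 0.21, adjusted p 0.04002), and another (chr4:147471843-147472296) 31.0 ± 1.46 and 17.8 ± 0.827 CPM (+0.80 ± 0.24, adjusted p 0.0491).

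H3K27ac differed at more members in the segment comparisons, though at a smaller share than over all regions. Between B6-13D2 and B6, 11 were higher and 30 lower of 536 tested (41 called, beside 13.0% of all regions), and with library totals in place of scaling factors 6 were higher and 63 lower. The balance turned to 74 higher and 50 lower with all libraries kept apart, was 47 higher and 56 lower in a fit of these 2 groups alone, and DESeq2 called 8, so no direction is read from this count. Between D2 and D2-13B6, 1 was higher and 14 lower (15 called, beside 6.67% of all regions), and with library totals 5 were higher and 18 lower, with all libraries kept apart 7 and 38, and DESeq2 called 9. The member medians were 0.03 and -0.08. The counts rest in part on single libraries. Between B6-13D2 and B6, 10 members were called without B6 replicate 3 and 21 without B6-13D2 replicate 2, and between D2 and D2-13B6, 4 without D2 replicate 2 and 29 without D2-13B6 replicate 1. By step, the first (chr4:144500001-144750000), the second and the last were lower in B6-13D2 (-0.31 ± 0.10, -0.27 ± 0.07 and -0.46 ± 0.08, 32.7% of all windows called), and D2 was higher than D2-13B6 in the first step (+0.37 ± 0.11) and lower in the second (-0.32 ± 0.07, 29.3% of all windows called).

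One member stood out for H3K27ac in both backgrounds, a region in an intron of Zfp984 (chr4:147793187-147795497). It had 58.9 and 67.8 CPM in B6 and 22.7 and 23.3 CPM in B6-13D2 (-1.46 ± 0.14, adjusted p 5.21e-11). In D2 it had 16.0 and 12.1 CPM and in D2-13B6 33.1 and 41.1 CPM (-1.38 ± 0.15, adjusted p 1.24e-09). With the D2 segment the value was lower in either background, the groups did not overlap, and both calls held under the 14 alternatives run for each. Among lines with the same segment, the D2 values were below those of B6-13D2 and the D2-13B6 values below those of B6, which was not tested. H3K9me3 at the same region fell between strains as well, from 56.0, 60.8 and 61.7 CPM in the B6 lines to 23.8, 25.3 and 30.6 CPM in the D2 lines (-1.16), but was not called in the segment comparisons (-0.21, adjusted p 0.898, and -0.37, adjusted p 0.781). At least 1 of its 3 probe sequences is dispersed, occurring at 6335 places in the genome, and from which of them its reads came was not tested.

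The Zfp985 promoter region was also lower in H3K27ac with the D2 segment. It had 34.8 and 37.2 CPM in B6 and 26.95 and 22.5 CPM in B6-13D2 (-0.52 ± 0.13, adjusted p 0.00552), and 21.5 and 18.6 CPM in D2 and 31.1 and 34.0 CPM in D2-13B6 (-0.69 ± 0.14, adjusted p 0.000458). The groups with the B6 segment lay above those with the D2 segment in both backgrounds. The first call was lost under DESeq2 (adjusted p 0.0644), without B6 replicate 3 (0.132) and without B6-13D2 replicate 2 (0.375), and the second without D2 replicate 2 (0.0631). H3K9me3 at this promoter was 16.6, 23.0 and 22.7 CPM in B6 and 27.7 and 32.2 CPM in B6-13D2, and 28.1 and 23.1 CPM in D2 and 16.8, 14.4 and 16.8 CPM in D2-13B6. The groups did not overlap, but neither difference passed the test (+0.53 ± 0.23, adjusted p 0.388, and +0.67 ± 0.25, adjusted p 0.194).

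**Figure D5:**
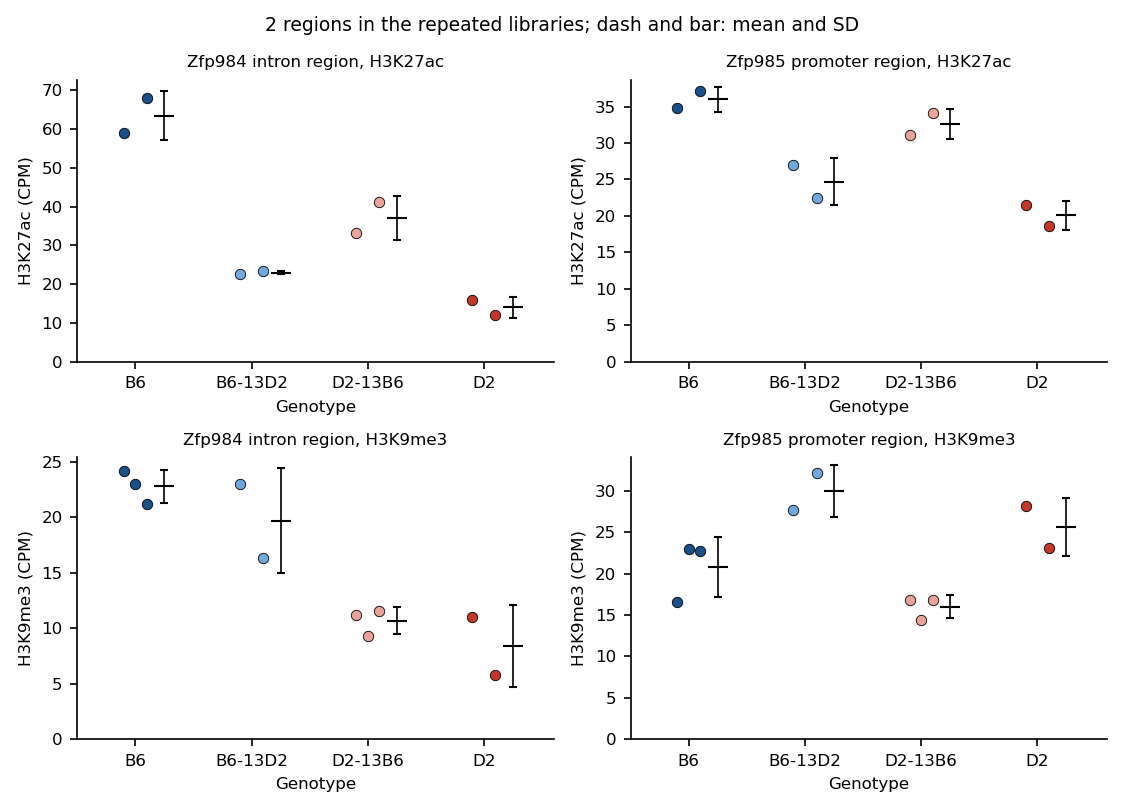
CPM (vertical axes, from 0) of H3K27ac and H3K9me3 in the repeated libraries of the 4 genotypes (horizontal axes) at the Zfp984 intron region and the Zfp985 promoter region. Points are samples, dashes and bars the mean and SD; at both regions H3K27ac in B6-13D2 and D2 lies below that of the line with the B6 segment in the same background.

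In all, 5 of 536 members were called for H3K27ac in both segment comparisons (0.933%, against 2.66% of all regions), 4 of them lower with the D2 segment in both. The other 2 of these 4 were an intron region of Gm13212 (chr4:145593755-145595283, 38.7 ± 0.905 CPM in B6, 19.8 ± 0.635 in B6-13D2, 37.8 ± 6.11 in D2-13B6 and 25.5 ± 0.0931 in D2) and one of Vps13d (chr4:144992021-144993455, 23.5, 15.1, 13.9 and 7.85 CPM in the same order). A region between Tnfrsf8 and Zfp990 (chr4:145365551-145366788) went opposite ways, +0.56 in the B6 and -0.58 in the D2 background. Beside these, regions named by smallest p included an intergenic region 23113 bp from Zfp984 (chr4:147729395-147730861, 17.6 ± 1.79 CPM in B6 and 7.35 ± 2.33 in B6-13D2, -1.19 ± 0.18) and 2 intergenic regions beyond Tnfrsf8 that were higher in B6-13D2 (chr4:145376678-145378746, 31.8 ± 1.17 and 51.3 ± 3.30 CPM, +0.70 ± 0.14, and chr4:145360601-145361614, 9.26 ± 0.192 and 13.5 ± 1.4 CPM, +0.55 ± 0.16). Between D2 and D2-13B6 an intergenic region 27445 bp from Tnfrsf8 (chr4:145342609-145344393) was higher in D2, at 37.6 ± 5.84 against 23.8 ± 2.33 CPM (+0.66 ± 0.14), while B6 and B6-13D2 had 3.31 ± 0.328 and 3.16 ± 0.528 CPM. An intergenic region 19866 bp from Gm438 (chr4:144806449-144807815) was lower in D2, at 27.1 and 29.7 CPM against 40.4 and 54.5 CPM in D2-13B6 (-0.75 ± 0.14, adjusted p 0.000157), while B6 had 33.8 and 39.5 CPM and B6-13D2 36.3 and 41.1 CPM.

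Among zinc finger promoters the segment comparisons called for H3K27ac 1 of 17 (Zfp985) between B6-13D2 and B6 and 2 of 17 (Zfp985 and Zfp984) between D2 and D2-13B6, beside 13.0% and 6.67% of all regions called, and for H3K9me3 0 of 17 in either. The Zfp984 promoter had 69.4 ± 3.71 CPM of H3K27ac in B6, 62.2 ± 3.4 in B6-13D2, 25.5 ± 3.72 in D2-13B6 and 17.9 ± 2.68 in D2 (SD, n = 2), with -0.51 between D2 and D2-13B6 (adjusted p 0.0229) and -1.93 ± 0.14 between D2 and B6. Between D2 and B6 in the repeated libraries 10 of 17 zinc finger promoters were lower for H3K27ac and 11 of 17 for H3K9me3, beside 13.4% and 6.99% of all regions lower, and none was higher.

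The difference between the segment effects of the 2 backgrounds was tested as an interaction. For H3K9me3 0 of 435 members and 0 of 14 steps were called (0.364% of all regions and 0.0391% of all windows called), with 24 members at an unadjusted p under 0.05, and DESeq2 called 0. Without D2-13B6 replicate 1 it was 1 member. For H3K27ac 14 of 536 members were called, 8 with a higher and 6 with a lower effect in the B6 background (5.3% of all regions called), and 1 of 14 steps (24.7% of all windows called). DESeq2 called 3, requiring 20 counts per library on average gave 31, and all libraries kept apart gave 57. The 14 became 6 without B6 replicate 3, 7 without B6-13D2 replicate 2, 5 without D2 replicate 2, 26 without D2 replicate 3 and 35 without D2-13B6 replicate 1.

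The same comparisons were made at intervals of zinc finger genes on chromosomes 2 and 13. On chromosome 2 (shared-list regions within chr2:174802312-177961593), H3K9me3 was lower at 21 and higher at 8 of 71 tested regions in the D2 lines (median -0.30) and H3K27ac, counted over the second list (regions within chr2:174916806-177985059), lower at 67 and higher at 22 of 227 (median -0.09). That is 40.8% called for H3K9me3, beside 34.6% of all regions, and 39.2% for H3K27ac, beside 49.3%. On chromosome 13 (65 to 67 Mb) H3K9me3 was higher at 265 and lower at 9 of 304 (median +2.13), or 90.1% called. H3K27ac rose there as well, higher at 231 and lower at 15 of 263 (median +2.00), or 93.5% called. In the segment comparisons of H3K9me3, that chromosome 13 interval was called at 305 of 316 regions in the B6 background and at 302 of 316 in the D2 background, beside the 4 and 3 of 435 members on chromosome 4 and 1.68% and 2.17% of all regions. H3K27ac in that interval was called at 316 and 309 of 344 regions, beside 41 and 15 of 536 members. Over all regions 13.0% and 6.67% were called. The exchanged segment is also on chromosome 13, while on chromosome 4 the compared lines are labelled with the same strain. These counts may therefore not be like for like. The difference between clusters was not tested.

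As a check of the cell type, H3K27ac at promoters of 9 of 10 pluripotency genes had a median of 193.1 CPM in the separate lines. The highest promoter mean of the trophoblast, primitive endoderm and fibroblast lists was 14.7 CPM. Those lists had regions at 3 of 4, 1 of 4 and 1 of 5 genes. CPM is not divided by width, and some regions are broad (that of Nanog spans chr6:122684861-122717409). The pluripotency gene without a region was Esrrb, with genotype means of 0.18 to 0.49 CPM in the repeated libraries. In the repeated libraries 4 of 4 fibroblast promoters with a region were higher in D2 than in B6. Their mean levels were 1.39 to 5.83 CPM. So were 4 of 10 pluripotency promoters with a region, of which that of Esrrb was not tested. Higher too were 8 of 16 promoters of genes for SETDB1 and other partners of KRAB zinc finger proteins (Trim28 had no counted promoter region). None of these was lower, beside 14.7% of all regions called higher. The separate lines did not show this for 9 pluripotency promoters, with 0 higher and 1 lower, or for 15 partner promoters, with 5 higher and 3 lower. Over all regions 24.3% were higher and 25.0% lower there. The 1 fibroblast promoter with a region in those lines was not called, at 1.26 CPM. Between B6-13D2 and B6, 1 of 4 fibroblast promoters was higher and none lower (list median +0.67), beside 13.0% of all regions called. It was Col1a2, a collagen gene, with 2.37 ± 0.402 CPM in B6 and 6.51 ± 0.876 in B6-13D2 (+1.43 ± 0.27, adjusted p 0.000189). Of 4 trophoblast promoters 1 was higher in that comparison and none lower (list median -0.27), and between D2 and D2-13B6 1 was lower and none higher (list median 0.002), beside 6.67% of all regions called. In both it was Cdx2, a transcription factor gene, which had 4.35 ± 0.394 CPM in B6 and 7.75 ± 1.08 in B6-13D2 (+0.78 ± 0.19, adjusted p 0.00366), and 10.5 ± 0.985 in D2 and 15.6 ± 0.689 in D2-13B6 (-0.59 ± 0.16, adjusted p 0.0163). The interaction was called at both (adjusted p 0.0411 for Col1a2 and 0.000345 for Cdx2). The part of cell composition in the cluster's values was not tested.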

How the data were processed

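The 34 ChIP-seq libraries were read at 75 bases per the labels, and no input library was among the samples used here. The authors deposited 4 tables of raw counts of reads per region, without duplicates per the file headers. The submitters' processing notes name mm10, Trimmomatic 0.39, HISAT2 2.2.1, MACS 1.4.2, bedtools 2.9.2 and edgeR, with no roles. The handling of reads with several placements is not given in the sources used here. Of the columns, 2 matched no sample and were not used. Library totals were 1487862 to 2559262 (H3K9me3, lines), 15444270 to 18272793 (H3K27ac, lines), 1538145 to 2185977 (H3K9me3, repeats) and 8735674 to 11543469 (H3K27ac, repeats).

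Each table was fitted whole in edgeR 4.0.16 (R 4.3.3) with TMM factors, filterByExpr and quasi-likelihood F-tests. Tests used Benjamini-Hochberg adjustment over all tested regions, or over all 250 kb windows of the genome, and called at 0.05. The repeated libraries of a mark were fitted together, with H3K27ac pairs within sampling noise (chi-square over regions with at least 40 counts) summed. The interaction is the segment effect in the B6 minus that in the D2 background. Levels are CPM, counts scaled to library totals multiplied by the TMM factors. Annotation was GENCODE vM21 and promoter sequences RefSeq GRCm38.p6, and identity was the edit distance per aligned base (edlib 1.3.9). Named regions were the 3 called members with the smallest p in each direction of the strain and segment comparisons, among those whose groups did not overlap, and the 3 of the interaction with the smallest p, where overlap was not considered. The fits were tested on simulated data. Members and gene lists were chosen with earlier results of these data known. Alternatives were DESeq2 1.42.0, other scalings and filters, left-out libraries, a replicate block and unique members only.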

Additional observations from a re-analysis of the deposited data

Results flagged for a closer look

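The H3K27ac effect of the chromosome 13 segment differed between the B6 and D2 backgrounds at 14 member regions and 1 window of 250 kb, by the test of the difference itself (edgeR quasi-likelihood F-test on the interaction, Benjamini-Hochberg adjustment). These were 14 of 536 members, beside 5.3% of all regions called, and 1 of 14 windows, beside 24.7% of all windows, so the members were called at a smaller share than all regions. The first window (chr4:144500001-144750000), which holds Aadacl4, an arylacetamide deacetylase-like gene, and 4 other protein-coding genes, was lower in B6-13D2 (33.6 ± 0.485 CPM) than in B6 (41.7 ± 1.62 CPM) and higher in D2 (33.1 ± 1.04 CPM) than in D2-13B6 (25.8 ± 3.08 CPM), a difference of -0.68 ± 0.15 (adjusted p 0.00396, n = 2 per genotype).

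The intergenic region 37479 bp from Gm438 (chr4:144824062-144825584) had 8.27 and 10.0 CPM in B6, 17.6 and 15.8 in B6-13D2, 15.7 and 21.7 in D2-13B6 and 15.1 and 12.8 in D2, a difference of 1.33 ± 0.23 (adjusted p 0.000152). A second region 17016 bp from Gm438 (chr4:144803599-144804388) had 8.41 and 9.35 CPM in B6, 7.90 and 9.24 in B6-13D2, 12.1 and 12.8 in D2-13B6 and 5.45 and 5.24 in D2, a difference of 1.16 ± 0.25 (adjusted p 0.00229). The region 50387 bp from Tnfrsf8 (chr4:145365551-145366788) had 11.5 and 12.2 CPM in B6, 17.5 and 17.2 in B6-13D2, 13.0 and 24.2 in D2-13B6 and 14.1 and 11.04 in D2, a difference of 1.14 ± 0.25 (adjusted p 0.00328). That last call was lost under DESeq2 (adjusted p 0.355) and without D2 replicate 2 (0.0599). D2-13B6 replicate 1 had 0.784% of its H3K27ac counts in the cluster, and replicates 2 and 3 had 0.839% and 0.833%.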

How the results depend on the processing

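Of 130 alternatives to the 20 counts of called regions and windows (leaving out libraries aside), 89 stayed within 1.5 times. The strain and parental counts moved only when members were restricted to unique ones, to 79 (H3K9me3 strain), 69 (H3K27ac strain), 47 (H3K9me3 parental) and 134 (H3K27ac parental); fewer regions were tested there. The share called was lower in 3 of these comparisons (79 of 137 against 289 of 401, 47 of 161 against 237 of 435, and 134 of 257 against 348 of 536) but not for H3K27ac between strains (69 of 118 against 217 of 379). That restriction gave 27 for H3K27ac in the B6 background, 7 for its interaction and 1 for H3K9me3 in the D2 background. The cause of these changes was not tested.

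The 4 H3K9me3 members of the B6 background became 2 with a mean of at least 20 counts, 1 with no filter, 0 with DESeq2 and 9 in a fit of 2 groups. The 3 of the D2 background became 1 with library totals, 23 when regions needed a mean of at least 20 counts (each of the 23 lower), and 0 with no filter, with DESeq2 and in a fit of 2 groups, where the 1 window was also lost (0). The 41 H3K27ac members of the B6 background became 69 with library totals, 8 with DESeq2, 124 (74 higher, 50 lower) with all libraries kept apart and 103 (47 higher, 56 lower) in a fit of 2 groups, and the 3 windows became 6 with library totals and 5 with libraries kept apart. The 15 of the D2 background became 23 with library totals, 23 with a mean of at least 20 counts, 9 with DESeq2, 45 with libraries kept apart and 9 in a fit of 2 groups, where 1 of 2 windows was left. The 14 of the H3K27ac interaction became 23, 31, 9, 3 and 57 with library totals, a mean of at least 20 counts, no filter, DESeq2 and libraries kept apart, and its 1 window became 3 with library totals and 4 with libraries kept apart. In the repeats, library totals shifted the median H3K27ac log2 difference of all regions by -0.14 between B6-13D2 and B6, by -0.15 between the parental lines and by -0.18 in the interaction, so calls with that scaling are relative to that shift.

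The deviations of same-numbered libraries correlated weakly (-0.07 to 0.16), and samples were not paired by number. The highest value, 0.16, was between replicates 1 of D2 and D2-13B6 for H3K9me3. D2 replicate 1 was at -0.09 and -0.11 with D2-13B6 replicates 2 and 3. These 2 replicates 1 had 0.640% (D2) and 0.635% (D2-13B6) of their H3K9me3 counts in the cluster. A replicate block gave 287 and 216 members for the strain comparison of H3K9me3 and H3K27ac, and 220 for the H3K9me3 parental lines. With libraries kept apart, the replicate block gave 126 members and 5 windows for H3K27ac in the B6 background, 44 members in the D2 background, and 60 members and 4 windows for the interaction.

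Leaving out 1 library at a time gave 258 to 285 members and 9 to 10 windows (H3K9me3 strain), 187 to 213 and 9 to 10 (H3K27ac strain), 188 to 231 and 9 to 9 (H3K9me3 parental) and 249 to 367 and 12 to 14 (H3K27ac parental). For H3K9me3 it gave 0 to 3 members and 0 to 0 windows in the B6 background, 0 to 25 and 0 to 4 in the D2 background, and 0 to 1 and 0 to 0 for the interaction. For H3K27ac it gave 10 to 50 and 1 to 4 in the B6 background, 4 to 29 and 1 to 3 in the D2 background, and 5 to 35 and 1 to 3 for the interaction. With 2 samples per genotype a left-out library leaves 1, which is assumed to vary like the other groups. Of the named regions, promoters and windows under these settings, 1665 values kept direction and call and 130 lost the call, and no called value changed direction. The smallest H3K9me3 library held 1487862 counts and the smallest H3K27ac library 8735674, which limits what the H3K9me3 comparisons can detect.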
